A study of Mus musculus with 2 samples.

Results

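A set of 44 mouse genes that code for ribosome biogenesis and rRNA processing factors was followed in pre CFU-E, the primitive erythroid progenitors that precede the colony forming unit-erythrocyte. The genes were listed by function, under a rule that uses no intensity, but with earlier results of these data known. They make up 44 of the 20660 genes that could be named on the array. All 44 had at least 1 probe well above background on both arrays, with 59 probes in all. The cells came from C57BL/6 mice, 8 to 12 weeks old by the study's methods, that were either wild type (WT) or homozygous knockouts of ESAM, the endothelial cell-selective adhesion molecule (ESAM-KO). Both genotypes had received 5-fluorouracil (5-FU) once, at 120 mg/kg, and bone marrow was taken 8 days later. Marrow of 3 mice was pooled per genotype, and cells negative for lineage markers and Sca1, negative or low for FCgRII/III, low for CD41 and positive for c-Kit, endoglin and CD150 were sorted. ESAM was missing from every tissue of the knockout mice, so that an effect within the sorted cells and an effect of other cells on them cannot be told apart. Each genotype was measured on 1 Agilent 1-color array. Untreated mice were not analysed here.

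With 1 array per genotype there was no replicate check and no test could be made, so that neither an SD nor a p-value over animals is given. The error given is that of the scanner software. It covers the spot and not the pool, the sort or the amplification, and its median over the 44 genes was 0.204 on the log2 scale. In such bulk samples, fewer cells of a type and less RNA per cell cannot be told apart. The arrays differed in brightness, with a 75th percentile of 201.1 for WT against 250.4 for ESAM-KO. Intensities are printed as deposited, whereas log2 ratios (ESAM-KO over WT) were taken after each array was set to its 75th percentile, which lowers every log2 ratio by 0.32. A gene can therefore read somewhat brighter on the ESAM-KO array and still have a ratio below 0. The median ratio of all 14146 named genes with a ratio was 0.00.

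The early erythroid and sort markers were present, since each of the 9 listed genes was well above background in both genotypes. After scaling, 3 of the 9 were higher and 6 were lower in ESAM-KO, with a median log2 ratio of -0.32. Kit read 3414 in WT and 3326 in ESAM-KO (log2 ratio -0.35). Gata1, a transcription factor of the erythroid lineage, read 5959 and 5889 (-0.33). The widest differences of the list went opposite ways. Nfe2, an erythroid and megakaryocytic transcription factor, read 1296 in WT and 637 in ESAM-KO (2.53-fold lower), and Tfrc, the transferrin receptor, read 2374 and 5466 (1.85-fold higher). Eng, which codes for endoglin, read 375 and 269 (1.74-fold lower). Slamf1, which codes for CD150, read 17.8 and 23.0, close to the lowest signals well above background of 12.6 and 13.2. Esam itself read 27.4 and 20.6 (log2 ratio -0.73, scanner error 0.31), so that the array checks the genotypes only weakly.

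Markers of other blood cells differed between the arrays. All 12 neutrophil genes, such as Mpo, Ltf and Ctsg, which code for granule proteins, were more than 2-fold lower in ESAM-KO. Their summed intensity was 60053 in WT and 10112 in ESAM-KO. Of 10 B cell genes, 5 were more than 2-fold lower, with summed intensities of 622.5 and 244.1, and Ms4a1 and Blk were not well above background on either array. Of 10 genes of mast cells, basophils and eosinophils, 3 were more than 2-fold lower in ESAM-KO and 1 was more than 2-fold higher. The eosinophil granule protein genes Prg2 and Epx read 1223 in WT against 113 in ESAM-KO (13.5-fold lower) and 296 against 19.5 (18.9-fold lower). Prss34, a basophil protease, was at least 7.53-fold lower. Ms4a2 was above background in ESAM-KO only, at 40.9 against 3.17 in WT, at least 2.61-fold higher. The macrophage genes were split, with 3 higher and 3 lower of the 6 with a ratio. Vcam1 was lower by both probes (121 and 20.6, 7.35-fold, by the brighter one), and C1qa was 2.28-fold higher (17.7 and 50.3). Of the 7 endothelial genes with a ratio, 2 were higher and 5 were lower. Pecam1 was 3.98-fold lower (284 and 88.8). Tek, above background in ESAM-KO only, was at least 2.15-fold higher (6.58 and 33.6). Several of the sums below rest largely on 1 bright gene. The summed intensity was 822.2 in WT and 1350 in ESAM-KO for 10 T and NK cell genes (5 of them not above background on either array, Ncr1 and Cd8a included), 6864 and 7624 for 9 macrophage genes (6554 and 7310 of it from Csf1r, with C1qc and Mrc1 not above background), 3130 and 2070 for 10 genes of mast cells, basophils and eosinophils (1497 and 1834 of it from Gata2, with Cpa3, Mcpt8, Fcer1a and Cma1 not above background), 2460 and 3106 for 10 megakaryocyte genes, and 2791 and 2808 for 10 endothelial genes (2056 and 2345 of it from Kdr, with Cdh5, Ptprb and Robo4 not above background). Some of these sums join genes that went opposite ways. Of the megakaryocyte genes, Vwf and Gp1ba were more than 2-fold higher in ESAM-KO, whereas Treml1, Ppbp and Gp9 were more than 2-fold lower. Of the 5 T and NK cell genes with a ratio, 4 were higher, and Cd3d was at least 3.75-fold lower. Cd4 made up 449 in WT and 864 in ESAM-KO of the T and NK cell sums, and its other probe had a log2 ratio of -0.05. Gp1bb made up 1000 and 1057 of the megakaryocyte sums. The part of these other cells in the ratios below was not tested.

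Ribosome production starts in the nucleolus, where RNA polymerase I transcribes a single long precursor that carries the 18S, 5.8S and 28S rRNAs. Small nucleolar RNPs of the box C/D class methylate this precursor and those of the box H/ACA class convert uridines to pseudouridine, while a large assembly called the small subunit processome and a series of 60S assembly factors cut, fold and pack it with ribosomal proteins. Erythroid progenitors make many ribosomes before they mature, and inherited defects of ribosomal proteins cause anemia in Diamond-Blackfan syndrome. The drug 5-FU is built into RNA as a fluorinated uridine, and it is known to disturb rRNA processing. Myc, together with Max, is known to drive many of these genes through the E-box, CACGTG.

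Promoter sequences were taken from RefSeq (build GRCm38.p6), which held 36 of the 44 genes. Probe sequences were not used here. An E-box, which reads the same on both strands, lay within the 250 bases before the start of transcription in 3 of the 36 (8.33%), compared with 6.86% of the 27025 promoters of the table, 8.49% of 106 other genes of the pathway and 8.62% of 58 ribosomal protein genes. With the 50 bases after the start included, 5 of the 36 (13.9%) held one, compared with 8.09% of all promoters, 17.9% of the other pathway genes and 10.3% of the ribosomal protein genes. The 3 upstream E-boxes, in Nop2, Utp18 and Rrn3, started 60, 20 and 215 bases before the start. The stretches shown are chr6:125131796-125131855 (plus strand), chr11:93885767-93885826 (minus strand) and chr16:13780457-13780516 (plus strand), each written 5′ to 3′ with the E-box in capitals.
Nop2: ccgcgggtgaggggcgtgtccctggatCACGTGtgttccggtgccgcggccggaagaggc
Utp18: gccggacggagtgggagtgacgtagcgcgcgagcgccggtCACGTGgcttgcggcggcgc
Rrn3: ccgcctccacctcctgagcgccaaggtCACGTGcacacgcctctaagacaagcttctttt

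The other pair of promoters shown belongs to Nop16 and Polr1b, the genes with the largest ratios of the set. These sequences were compared after the ratios were known, so that what they share is a description only. The longest run of letters common to the 250 bases before both starts was AACTACATTTCCCA, 14 letters, in capitals below. In both promoters it began 23 bases before the start. Of all 27025 promoters, 58 (0.215%) held this run in that window on either strand, among them Snhg12 of the other pathway genes and Rpl6 of the ribosomal proteins. A looser form, ACTACANNTCCCA, was derived from that run, so that Nop16 and Polr1b hold it by construction. Nop10 and Nop14 held it as well, which makes 11.1% of the 36 with Nop16 and Polr1b counted. It was held by 2.83% of the other pathway genes, 3.45% of the ribosomal proteins and 1.55% of all promoters. The share of 11.1% cannot be set against these, because it counts the genes that defined the form. The 100 bases before each start are chr13:54590075-54590174 (minus strand) for Nop16 and chr2:129100896-129100995 (plus strand) for Polr1b.
Nop16: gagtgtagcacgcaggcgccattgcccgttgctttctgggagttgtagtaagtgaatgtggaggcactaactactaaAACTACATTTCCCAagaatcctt
Polr1b: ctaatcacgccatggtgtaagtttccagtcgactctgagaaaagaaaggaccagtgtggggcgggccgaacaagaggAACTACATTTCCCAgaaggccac

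Most of the 44 factors read somewhat higher in ESAM-KO pre CFU-E, by small amounts. By ratios of any size, 34 of the 44 were higher and 10 were lower in ESAM-KO (29 higher with each array set to its median and 42 without scaling), whereas 50.1% of all named genes were higher. Their median log2 ratio was 0.25 (1.19-fold), a range of 0.08 to 0.45 between the quartiles, an SD of 0.38 over genes and a full range of -0.42 to 1.44. The median lay 0.24 above that of all named genes. By the study's criterion of more than 2-fold, 2 were higher, Nop16 and Polr1b, in a background of 7.0%, and 0 were lower, in a background of 8.39%. At 1.5-fold, 4 were higher (background 15.7%) and 0 were lower (background 17.5%), Utp20 and Wdr12 being added to the former pair. At this scaling the counts past 2-fold and 1.5-fold did not stand above the share of all genes. With normexp background correction the same count of 2 past 2-fold higher stood beside 1.67% of all genes.

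**Figure D1:**
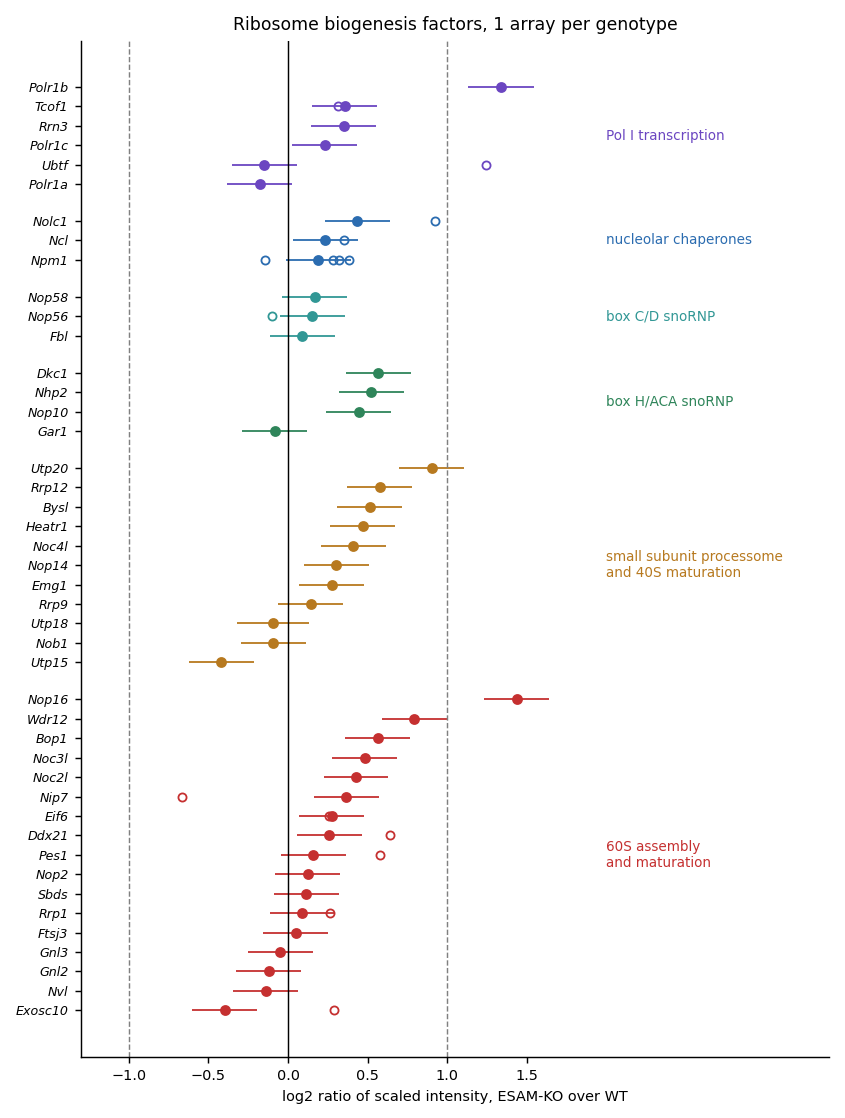
Log2 ratio of ESAM-KO over WT for each of the 44 factors by role, after scaling to the 75th percentile. Filled points are the brightest probe with the scanner software's error, open points are other probes of the same gene, and dashed lines mark 2-fold. Filled points lie right of 0 for 34 genes, and those of Nop16 and Polr1b lie past 2-fold.

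Bright probes varied less between the arrays than dim ones, and most of these factors had bright probes. Of the 44, 30 fell in the brightest quartile of the genes above background on both arrays and 12 in the next, with Polr1b in the one after it and Utp18 in the dimmest. In the brightest quartile 25 of 30 were higher, with a median of 0.25, compared with 52.1% of all genes of that quartile. In that quartile 6.66% of all genes were past 1.5-fold and 0.793% were past 2-fold in this direction, and none of the 30 factors reached 1.5-fold. In the next quartile 8 of 12 were higher, with a median of 0.32. The ratio exceeded the scanner error for 26 genes, 24 of them higher and 2 lower (Exosc10 and Utp15), and lay within it for the other 18. The share of all genes past their scanner error was not computed. For all genes of the brightest quartile, the lower and upper quartiles of the ratio were -0.24 and 0.28. Many of those genes thus also lay further than 0.204 from 0, in both directions.

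**Figure D2:**
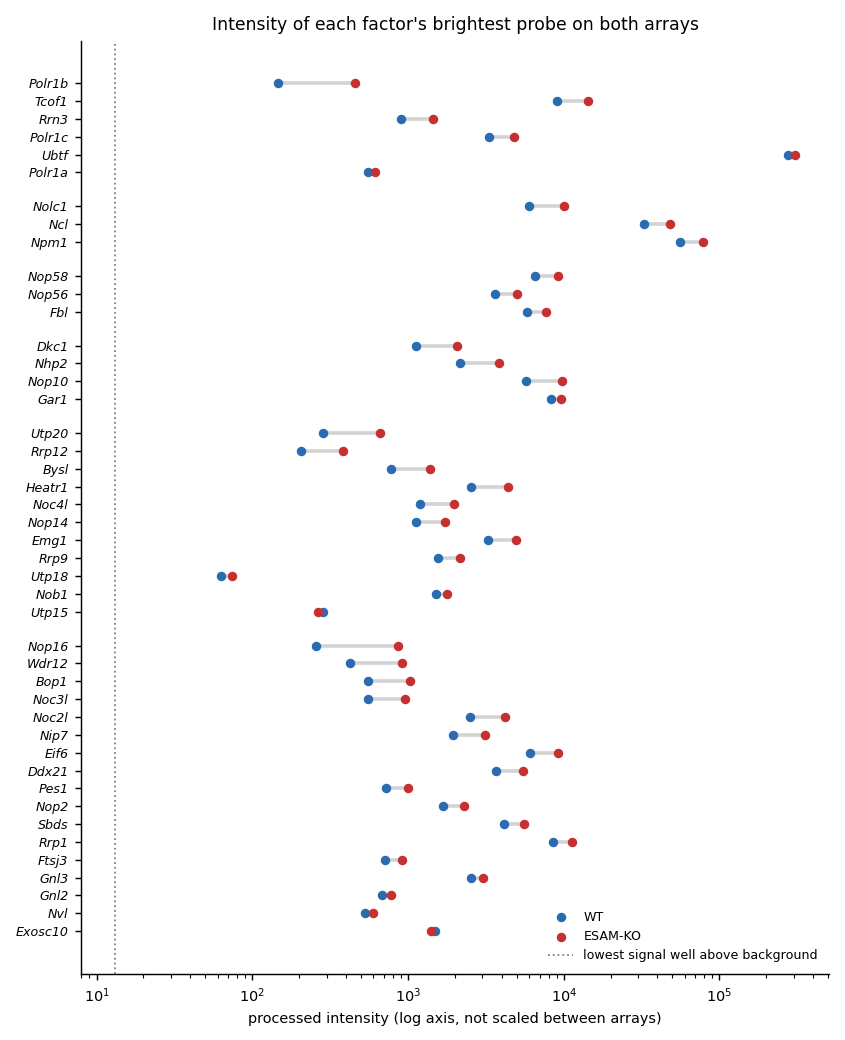
Intensity of the brightest probe of each factor in WT (blue) and in ESAM-KO (red), on a log axis and not scaled between arrays, in the order of the role groups. Readings span from 63.4 for Utp18 to 307865 for Ubtf, and all lie above the dotted line at 13.2, where signals well above background begin for ESAM-KO.

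Of the 6 factors of RNA polymerase I transcription, 4 were higher, with a median log2 ratio of 0.29. Polr1b, which codes for the second largest subunit of the polymerase, read 146 in WT and 459 in ESAM-KO. Its log2 ratio was 1.34 (scanner error 0.21), 2.53-fold higher in ESAM-KO, from 1 probe. Polr1a, the largest subunit, did not follow it, with 554 in WT against 611 in ESAM-KO (log2 ratio -0.18, within the scanner error). Polr1c codes for a subunit shared with RNA polymerase III and was the 1 factor whose probe was spotted 10 times. Over those spots its intensity as deposited ranged from 3071 to 3753 in WT (median 3279) and from 4328 to 5303 in ESAM-KO (median 4882). These readings are not scaled, so that the greater brightness of the ESAM-KO array adds to the gap between them. After scaling, the log2 ratio of Polr1c was 0.23, with spots between 0.18 and 0.29. The SD over spots was 0.037, which is error within the array only. Rrn3, which brings the polymerase to the promoter, had a log2 ratio of 0.35, and Tcof1, the nucleolar protein treacle, had 0.36 and 0.31 by its 2 probes. Ubtf, the upstream binding factor of the rRNA genes, was not settled by its probes. The brighter one, sixth in mean signal among all probes at 274224 in WT and 307865 in ESAM-KO, stood at -0.15 on the log2 scale. The dimmer one stood at 1.25, from 89.7 in WT and 265 in ESAM-KO.

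The 3 nucleolar chaperones were all higher, with a median log2 ratio of 0.23, and 1 of their other probes was lower. Nolc1, which binds small nucleolar RNPs, had log2 ratios of 0.43 and, by a dim probe that read 58.2 and 137, of 0.92. Ncl, which codes for nucleolin, had 0.23 and 0.35. Npm1, which codes for nucleophosmin, was measured by 5 probes. The brightest read 55675 in WT and 79005 in ESAM-KO (log2 ratio 0.19), and the others read 40363 and 61180 (0.28), 22046 and 24815 (-0.15), 15136 and 23513 (0.32) and 4591 and 7450 (0.38). By probe, 4 were thus higher and 1 was lower. Npm1 has near-identical pseudogene copies in the mouse genome, and which of them the probes bind was not tested.

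All 3 proteins of the box C/D RNPs were higher by their brightest probes, but each by less than the scanner error, with a median log2 ratio of 0.15. Fbl, the methyltransferase fibrillarin, had a log2 ratio of 0.09, and Nop58, a core protein, had 0.17. Nop56, its partner in the core, read 3605 in WT and 4986 in ESAM-KO by one probe (0.15) and 1713 and 1988 by the other (-0.10), so that its direction was not settled.

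The 4 proteins of the box H/ACA RNPs had the highest median of the 6 role groups, 0.48, with 3 of the 4 higher by more than the scanner error. Dkc1, the pseudouridine synthase dyskerin, read 1121 in WT and 2066 in ESAM-KO (log2 ratio 0.57). Nhp2, a core protein of the complex, read 2162 and 3871 (0.52). The small core protein Nop10 read 5761 and 9761 (0.44). Gar1, the remaining protein, stood apart from them, with 8242 and 9681 (-0.08), within the scanner error. Each of the 4 was measured by 1 probe.

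Of the 11 factors of the small subunit processome and 40S maturation, 8 were higher, and their median log2 ratio was 0.30. Utp20, a large scaffold protein, read 285 in WT and 663 in ESAM-KO (log2 ratio 0.90). Rrp12, a factor of pre-ribosome maturation and export, read 205 and 380 (0.58), and Bysl, the 40S assembly factor bystin, read 778 and 1382 (0.51). These 3 exceeded the scanner error of 0.20 to 0.21. They were followed by Heatr1 (0.47), which acts in the processome and in rRNA transcription, Noc4l (0.41), Nop14 (0.30) and the methyltransferase Emg1 (0.28), each past its scanner error, and by Rrp9, a protein of the U3 RNP, within it (0.14). Utp15, a processome subunit tied to rRNA transcription, was the lowest of all 44 genes, at 284 in WT against 264 in ESAM-KO (log2 ratio -0.42). Utp18 of the same assembly read 63.4 and 74.0 (-0.09), and Nob1, the nuclease that trims the 18S rRNA at its end, read 1518 and 1771 (-0.09), both within the scanner error.

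Of the 17 factors of 60S assembly, 13 were higher, with a median log2 ratio of 0.16. Nop16, a nucleolar protein of the 60S precursor, had the largest ratio of the 44 genes. Its 1 probe, for NM_178605, read 256 in WT against 863 in ESAM-KO, 2.71-fold higher after scaling (log2 ratio 1.44, scanner error 0.20). The complex of Pes1, Bop1 and Wdr12, which is needed to process the 28S side of the precursor, read higher for all 3 genes. Wdr12 read 427 and 921 (0.79) and Bop1 read 557 and 1027 (0.56), whereas Pes1 had 0.16 by its bright probe, within the scanner error, and 0.57 by a dim one. Noc3l, a factor of 60S precursor maturation, read 553 and 963 (0.48), and its partner Noc2l had 0.43.

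The remaining 60S factors lay between -0.40 and 0.37 by their brightest probes. Eif6, which keeps the 60S subunit from joining the 40S, had log2 ratios of 0.28 and 0.26 by its 2 probes, and the RNA helicase Ddx21 had 0.26 and 0.64. The values of Nop2, a methyltransferase of the large rRNA (0.13), Sbds, which helps to release Eif6 (0.12), Rrp1 (0.09, other probe 0.26) and the methyltransferase Ftsj3 (0.05) were within the scanner error. So were the lower values of the GTPases Gnl3 and Gnl2 and of the ATPase Nvl. Gnl3, nucleostemin, read 2526 and 3038 (-0.05), Gnl2 read 677 and 776 (-0.12), and Nvl read 531 and 600 (-0.14). In 2 genes of this group the probes went opposite ways by more than the scanner error. Nip7 read 1940 and 3113 by one probe (0.37) and 199 and 156 by the other (-0.67), and Exosc10, the nuclease of the nuclear exosome, read 1481 and 1399 by one (-0.40) and 532 and 809 by the other (0.29).

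Repeated probes give a measure of error that the scanner software does not. Of the 12 factors with more than 1 probe above background on both arrays, 7 had all probes higher in ESAM-KO and none had all probes lower, while 5 had probes of both directions (Exosc10, Nip7, Nop56, Npm1 and Ubtf). The median range between probes of a gene was 0.40 over these 12 genes, compared with 0.48 over the 3056 named genes with several probes, and the largest was 1.40 for Ubtf. This range exceeded the median ratio of the set, so that the ratio of a single gene near that median was within the spread between probes. Counted by probe, 46 of 59 were higher, and 3 were past 2-fold higher and 0 lower. The 15 probes that were not the brightest of their gene, and so did not enter the counts by gene, had a median of 0.31, and 12 of them were higher. They share RNA and array with the others, and are not a replicate of the comparison. The counts by probe, and those of genes whose probes shared a direction, were not made over all named genes. They thus have no background to be set against.

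The ribosomal proteins, which these factors pack onto the rRNA, lay on the other side of the median of all genes. All 78 listed genes were in the brightest quartile, and ESAM-KO was the lower array for 76 of them (27 without scaling), with a median log2 ratio of -0.26 and a range of -0.58 to 0.34. None was past 1.5-fold. The 46 genes of the large subunit (median -0.27) and the 32 of the small subunit (-0.26) had nearly the same median. The exceptions were Rps27l, a paralog of Rps27 known as a p53 target, with 1166 in WT and 1838 in ESAM-KO (0.34), and Rps3, with 22881 and 34262 (0.27), whose other probe had -0.28. The median of the 44 factors was 0.51 above that of the ribosomal proteins (1.42-fold). Of the 44 factors, 42 were above the median ribosomal protein. The lowest of these was Polr1a, and 37.8% of all named genes with a ratio lay below it. The groups overlapped in part. Above the highest ribosomal protein lay 18 factors, the lowest of them Rrn3, below which lay 73.6% of all these genes. Below the lowest factor, Utp15, lay 11 ribosomal proteins and 24.1% of all these genes. Many ribosomal protein genes have near-identical pseudogenes, and what their probes bind was not tested.

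The scaling sets where 0 lies. It subtracts 1 constant from every log2 ratio, so that the distance between the medians is 0.51 by construction under each such constant. Among the settings that can move it, the distance was 0.43 with quantile normalization, 0.49 with cyclic loess, 0.46 with normexp, 0.52 with the median of spots and 0.55 with the mean of the probes. Most ribosomal proteins lay at the top of the range of signal, so both groups were also read within narrower ranges of it. The brightest quartile was divided into 4 parts of like size. In its brightest part, with mean intensities from 6778 to 315888, 46.7% of 788 genes were higher, with a median log2 ratio of -0.02. There, 8 of 10 factors were higher (median 0.21), compared with 1 of 73 ribosomal proteins (median -0.26). In the next part, 57.6% of 788 genes, 9 of 10 factors and 0 of 4 ribosomal proteins were higher.

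**Figure D3:**
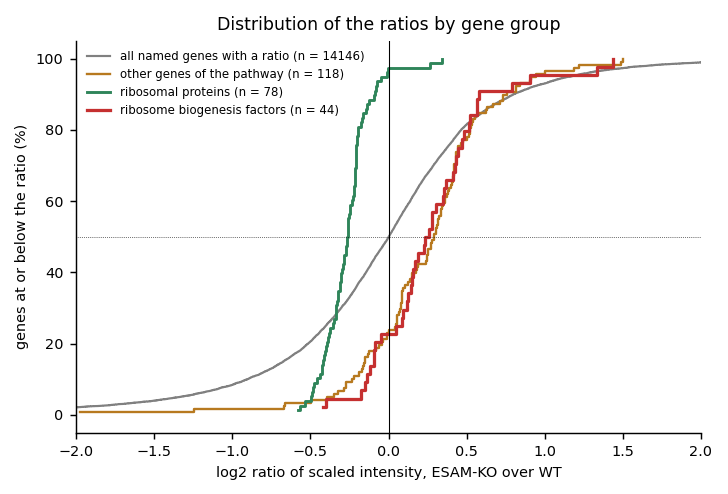
Share of genes at or below each log2 ratio of ESAM-KO over WT, for the 44 factors, 118 other genes of the pathway, 78 ribosomal proteins and all 14146 named genes with a ratio, with the axis limited to -2 to 2. The curves of the factors and of the other pathway genes cross 50% at 0.25 and 0.29, and that of the ribosomal proteins at -0.26.

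**Figure D4:**
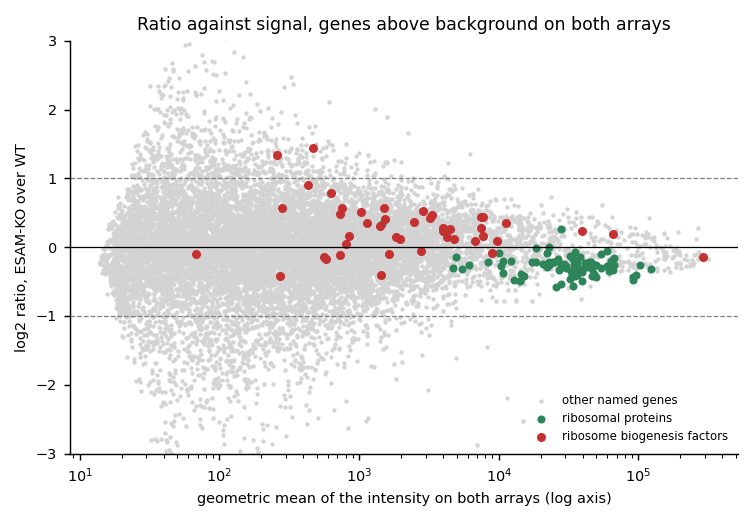
Log2 ratio against the geometric mean intensity of both arrays (log axis) for genes above background on both arrays, with the ratio axis limited to -3 to 3 and dashed lines at 2-fold. Factors (red) lie mostly above 0 and ribosomal proteins (green) mostly below it, also where their intensities overlap.

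A list of 123 other genes of ribosome production lay close to the 44 factors. Of these, 119 were on the array under that name and 118 had a ratio. Of the 118, 91 (77.1%) were higher, compared with 77.3% of the 44 factors, and their median log2 ratio was 0.29. They were higher in 13 of 15 genes of polymerase I transcription (median 0.40), 29 of 40 of the small subunit (0.31), 30 of 38 of the large subunit (0.24), 8 of 12 of the exosome and its partners (0.30), 7 of 8 of small nucleolar RNP assembly (0.26) and 4 of 5 host transcripts of small nucleolar RNAs (0.07). Past 2-fold, 5 were higher and 2 were lower, against the background of 7.0% and 8.39% of all genes.

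The 5 higher ones were Pno1, Nop9, Nol12, Cd3eap and Taf1c. Pno1, a partner of Nob1 in 18S maturation, read 326 in WT and 1148 in ESAM-KO (2.83-fold), and Nop9, a factor of 18S processing, read 14.0 and 49.0 (log2 ratio 1.49), its WT reading being close to background. Nol12, a nucleolar RNA-binding protein, read 218 and 633 (1.22). The polymerase I subunit Cd3eap read 73.2 and 207 (1.19), and Taf1c of the polymerase I promoter factor read 47.2 and 118 (1.00). On the lower side, Wdr18, a factor of 60S assembly, read 440 and 231 (-1.25), but its other probe was above background in ESAM-KO only, at 42.0 against 2.86 in WT. C1d, a partner of the exosome, read 41.6 in WT and was not well above background in ESAM-KO, which puts it at least 3.94-fold lower.

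The regulators listed beside them were split, with 3 of 6 higher. Myc read 1224 in WT against 1225 in ESAM-KO (log2 ratio -0.31). Its partner Max read 2633 and 3594 (0.13). Mycn, a paralog of Myc, read 15.7 and 79.0 (2.01, scanner error 0.35), its WT reading being close to background. Mxd1, which competes with Myc for Max, was lower by both of its probes, with 3229 in WT and 1262 in ESAM-KO (-1.67) and 1813 and 929 (-1.28). Mnt had a ratio near 0, at -0.0027. Mxi1 was above background in ESAM-KO only, at 25.8 against 2.76 in WT, at least 1.65-fold higher (scanner error 1.46 on the log2 scale).

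Over the settings tried, 28 of the 44 factors were above 0 in every one and 2 were below it in every one (Exosc10 and Utp15), and the other 14 took both signs. The same count was not made over all named genes, so that it has no background. The share of all named genes above 0 ran from 40.9% with each array set to its median to 71.0% without scaling. The medians of the factors, the ribosomal proteins and all genes shifted together between scalings. The factors' median stayed 0.24 to 0.38 above that of all genes, and 34 to 39 of the 44 were above it in every setting. Nop16 (1.23 to 1.75) and Polr1b (1.05 to 1.65) were past 2-fold in all of them, and Utp20 (0.76 to 1.22) and Wdr12 (0.66 to 1.11) only without scaling.

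**Figure D5:**
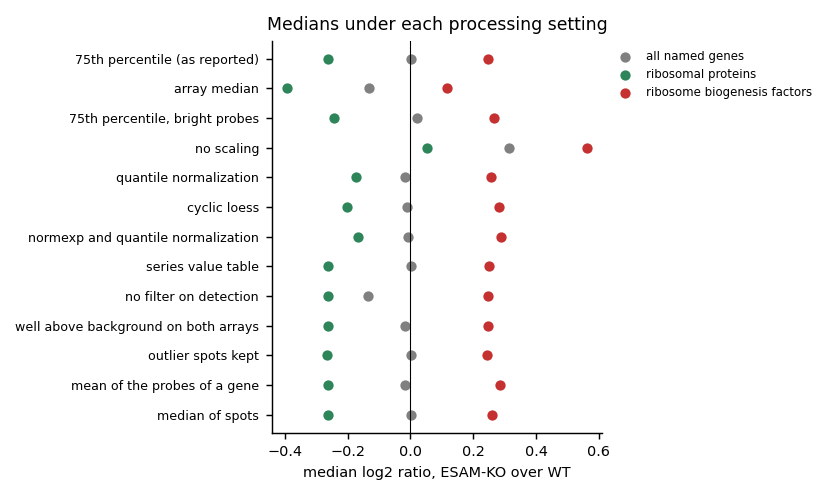
Median log2 ratio of ESAM-KO over WT under each processing setting, for the 44 factors (red), 78 ribosomal proteins (green) and all named genes with a ratio (grey). The factors lie right of all genes in every setting, between 0.12 with each array set to its median and 0.56 without scaling, and the ribosomal proteins lie left of all genes.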

How the data were processed

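Total RNA of the sorted cells was amplified by a whole transcriptome kit, labelled with Cy3 and hybridised to 1 Agilent SurePrint G3 mouse array per genotype. What the authors deposited for each array is a scanner table from Agilent Feature Extraction 10.10.1.1, in which the processed intensity is corrected for background within the array and not scaled between arrays. The deposited series table equals it at 3 significant digits and served as an alternative. The study's methods state a 2-fold criterion and name no scaling.

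Processed intensities were put on the log2 scale and each array was centred on its 75th percentile. Of 59305 spots without controls, 254 with an outlier flag were left out, and 0 were saturated. Signal was well above background for 57.3% of spots in WT and 61.1% in ESAM-KO. Spots of a probe were averaged, and a probe was above background if over 50% of its spots carried that flag. With the flag on 1 array only, a bound is given in place of a ratio: the dim array enters at its lowest flagged signal, or at the probe's reading if that is higher. For each gene the brightest probe by mean signal was taken. The files carry transcript accessions, and 27235 of 55680 probes were named through RefSeq accessions of GRCm38.p6, matched without versions. Of the genes named, 12615 were above background on both arrays.

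The 44 genes and all lists were chosen with earlier results of these data known, and nothing rests on them as independent evidence. Both intensities were to be printed for factors past 2-fold, for the 10 highest and 10 lowest, and for those with probes of both directions. Of the other pathway genes at most 8 in each direction were named, of each further list at most 4, and Myc, Mycn and Max always. Markers of the sort, Cd4, Csf1r, Gata2, Gp1bb, Kdr, Rps27l, Rps3, Mnt, Mxi1 and the markers not above background were named after their values were seen. Protein features, which had been planned, were not analysed here. Promoters were searched on both strands, 250 bases before to 50 after the start.

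Values were recomputed with other scalings (array median, 75th percentile over bright probes, none, quantile, cyclic loess), background correction by normexp (offset 50), written for mean but run on median spot signals, the series table, no or a stricter detection filter, outlier spots included, probes of a gene averaged, the median of spots and thresholds of 1.5-fold and 3-fold. The pandas 2.3.3, numpy 2.4.6 and matplotlib 3.10.9 packages in Python 3.11.15, and limma 3.58.1 in R 4.3.3, did the computing. The path from spots to counts was tested on simulated data with changes well past 2-fold only, so that it was not tested for small ratios. Precision is limited by having 1 array each.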

Additional observations from a re-analysis of the deposited data

How the results depend on the processing

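No paired analysis was possible because only 1 array was run per genotype, and for the same reason no replicate could be left out. The medians moved most without scaling, and the counts of all genes past 2-fold also moved with normexp. Without scaling, 4 factors were past 2-fold higher, the median log2 ratio of the 44 was 0.56, and the medians by role were 0.61 for polymerase I transcription, 0.47 for box C/D, 0.80 for box H/ACA, 0.55 for the chaperones, 0.62 for the small subunit and 0.48 for the 60S factors, while 27 ribosomal proteins were lower. The shift comes from the construction, since the median of all genes moved by 0.31. It moved by -0.14 with each array set to its median, where 29 factors were higher, and by -0.14 without a filter on detection. At 1.5-fold 4 factors were higher and at 3-fold 0 were. Genes past 2-fold, higher and lower, numbered 990 and 1187, compared with 1805 and 729 without scaling, 751 and 1511 with the median, 236 and 486 with normexp, 1801 and 2301 without the filter, 659 and 927 with detection on both arrays, and 637 and 836 with the mean of probes. Of 528 factor values under the alternatives, 476 lay within 0.204 of the value given, and of the others 44 were without scaling and 8 were not. Much of this count was fixed by the settings. The detection filters left all 44 values unchanged, and the other constant scalings shifted every factor alike by less than 0.204. Apart from rounding and the spots of Polr1c, only quantile normalization, cyclic loess, normexp and the mean of probes could move factors by differing amounts. The results on the ribosomal proteins, on the other pathway genes and on the distance between medians were put through these settings after the data had been seen. With 1 array each, depth of signal limits the dim genes most.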
